A study of Mus musculus with 8 samples.

Results

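The enzymes that hydroxylate and crosslink collagen were followed here in mouse NIH3T3 fibroblast clones. They comprise 10 genes, taken by symbol from an RNA-seq table of 24062 genes: the lysyl oxidases Lox, Loxl1, Loxl2, Loxl3 and Loxl4, the lysyl hydroxylases Plod1, Plod2 and Plod3, and the prolyl 4-hydroxylase alpha subunits P4ha1 and P4ha2. All 10 had an adjusted p-value. The tested clones, numbers 10 and 12, carried 14-3-3ε, a protein that binds phosphorylated partners, in the p3xFLAG-CMV-10 vector, where a CMV promoter drives a FLAG-tagged product. Control clones 2 and 3 stood against them. All are clones of 1 immortalised embryonic fibroblast line, grown in DMEM with 10% serum. The labels of all samples give selection in G418 at 800 µg/mL, and describe single colonies checked for FLAG by western blot for the 14-3-3ε line. Each of the 4 clones had an RNA-seq library and a reduced representation bisulfite (RRBS) library, which samples methylation in CpG-rich fragments, for 8 samples in 4 groups of 2.

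Collagen needs these enzymes at successive steps. In the endoplasmic reticulum, prolyl 4-hydroxylases modify prolines of the new chains, which lets the triple helix hold at body temperature, and lysyl hydroxylases modify lysines. Both classes use iron, oxygen, alpha-ketoglutarate and ascorbate. Outside the cell, the copper enzymes of the lysyl oxidase family oxidise lysines and hydroxylysines of collagen, and lysines of elastin, to aldehydes that form the covalent crosslinks of the fibre. Fibroblasts are a main source of this matrix.

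Both tables hold the authors' own comparison of 14-3-3ε clones with control clones and no value per clone, so neither the levels in each clone nor their overlap can be shown. Positive values were read as higher in 14-3-3ε clones, a sign that neither table states, and every direction below rests on that reading. The mouse 14-3-3ε gene, Ywhae, did not check it: the authors' deposited table lists it at -0.03 ± 0.18 (log2 fold change ± standard error, SE; adjusted p 0.942). All 8 fibroblast markers examined had an adjusted p and mean normalized counts of 4843 or more in the authors' deposited table. Markers of other cell types summed there to 52.6 for 4 epithelial, 119.8 for 2 blood, 13.9 for 3 endothelial and 67.2 for 3 muscle genes. The endothelial gene Kdr was at 0. The levels of these markers by group are unknown, but their fold changes are listed. At an adjusted p under 0.05, the fibroblast markers Col1a1, Col1a2, Pdgfrb and Fbn1 were higher, while Vim, Thy1, Fn1 and S100a4 were not called. The muscle gene Des was lower, at a log2 fold change of -1.28 (adjusted p 0.00931; authors' deposited table), and Krt8 and Cd68 were not called. What part these markers have in any result was not tested. RNA-seq shows transcripts of a clone as a whole, in which fewer expressing cells and less RNA per cell cannot be told apart.

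Upstream sequence is shown for 3 members because it shows which cytosines RRBS read in front of a gene. Capitals mark the cytosines in the RRBS table, as C on the printed strand or as G where the cytosine lies on the other strand. Each is the 250 bases before the start given in the RefSeq table of GRCm38.p6, the assembly of mm10, 5′ to 3′. For P4ha1 that start lies inside the annotated gene span, which begins at 59323197. The last part of its printed stretch, and the cytosines there, therefore also count as inside the gene. Loxl4 is chr19:42612807-42613056 on the minus strand and had the widest mean difference of these 3, P4ha1 is chr10:59323046-59323295 on the plus strand and had the most cytosines, and Plod1 is chr4:147936777-147937026 on the minus strand and held the single called cytosine.
Loxl4: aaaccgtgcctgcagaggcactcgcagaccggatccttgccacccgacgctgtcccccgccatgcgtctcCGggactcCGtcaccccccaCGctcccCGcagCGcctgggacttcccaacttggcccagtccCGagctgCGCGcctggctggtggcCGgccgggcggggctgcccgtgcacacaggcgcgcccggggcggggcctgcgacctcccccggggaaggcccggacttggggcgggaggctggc
P4ha1: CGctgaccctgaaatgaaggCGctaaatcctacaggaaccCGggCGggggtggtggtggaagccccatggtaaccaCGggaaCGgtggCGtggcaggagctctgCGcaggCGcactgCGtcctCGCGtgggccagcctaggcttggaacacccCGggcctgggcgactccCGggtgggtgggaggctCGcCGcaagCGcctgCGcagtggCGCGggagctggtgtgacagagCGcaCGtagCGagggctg
Plod1: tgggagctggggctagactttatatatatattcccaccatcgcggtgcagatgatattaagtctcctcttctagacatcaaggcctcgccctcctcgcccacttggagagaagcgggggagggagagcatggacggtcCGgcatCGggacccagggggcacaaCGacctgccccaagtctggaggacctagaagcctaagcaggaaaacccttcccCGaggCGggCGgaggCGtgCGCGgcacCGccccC
Starts came from that table for these 3 members and for Plod3 and P4ha2. Lox, Loxl1, Loxl2, Loxl3 and Plod2 were examined at both annotated gene ends.

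In the comparison of transcripts, 3 of the 5 lysyl oxidase genes rose in 14-3-3ε clones, and no hydroxylase gene passed the test. Loxl1, Loxl3 and Lox were each about 1.76-fold to 2.16-fold higher than in control clones. Loxl2, Loxl4, the 3 Plod genes and both P4ha genes were not called. A call here is an adjusted p under 0.05 in the authors' deposited table, adjusted over the 11482 genes that have one. Over all of these genes, 6.15% were called higher, 4.74% lower and 10.9% either way. Of the 10 members, 3 were called higher and 0 lower. With 2 clones per group, differences between single clones and an effect of 14-3-3ε are only weakly separated.

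**Figure D1:**
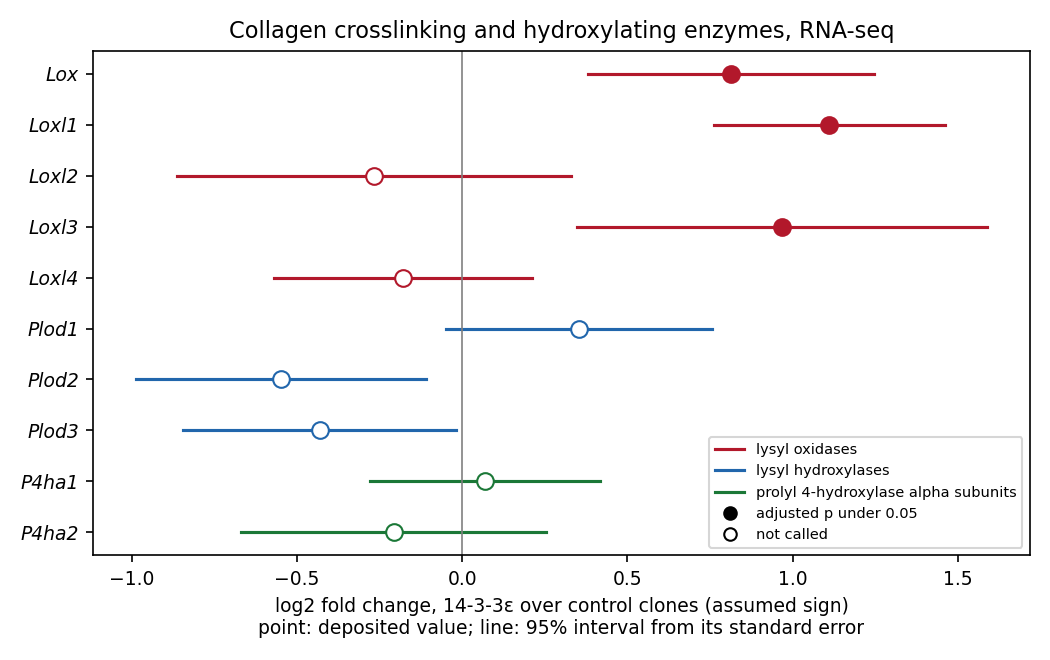
The log2 fold change of each of the 10 genes (x axis, 14-3-3ε over control clones, assumed sign) with its 95% interval from the deposited standard error. Filled points, for Lox, Loxl1 and Loxl3, have an adjusted p under 0.05, and their intervals lie above 0; those of Plod2 and Plod3 lie below 0 without a call.

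Lox encodes the founding lysyl oxidase, which acts on fibrillar collagen and elastin. The gene lies at chr18:52516060-52529867 and had a mean normalized count of 80656 over the libraries in the authors' deposited table. Its log2 fold change was 0.81 ± 0.22 (SE; adjusted p 0.00485; authors' deposited table). That is 1.76-fold, with a 95% interval of 1.30 to 2.37 drawn from the SE. Of all tested genes, 94.97% had a lower fold change.

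Loxl1 encodes the family member known for its part in elastic fibre upkeep in mice. At chr9:58287723-58313212, the authors' deposited table gives it a mean normalized count of 11475 and a log2 fold change of 1.11 ± 0.18 (SE; adjusted p 5.64e-08). The rise was 2.16-fold with an interval of 1.70 to 2.75. Loxl1 was the only member changed by at least 2-fold among those called.

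Loxl3, which in mice is needed for collagen of the palate and spine, lies at chr6:83034205-83052566. The authors' deposited table gave it a mean normalized count of 1196 and a log2 fold change of 0.97 ± 0.32 (SE; adjusted p 0.0270). The rise was 1.957-fold with an interval of 1.27 to 3.01, the widest of the 3 on this scale. Among 2836 genes with a mean count within 1.5-fold of that of Loxl3, 96.1% had a smaller standard error, and their median was 0.22. The annotated span of Loxl3 overlaps that of the protease gene Htra2 by 1301 bp. Htra2 stood at a log2 fold change of -0.32 (adjusted p 0.341; authors' deposited table), and how reads in the shared stretch were assigned is uncertain.

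Loxl2 and Loxl4 encode lysyl oxidases that carry scavenger receptor domains, as Loxl3 does, and Loxl2 is known for crosslinking basement membrane collagen. Loxl2, at chr14:69608692-69695834, had a mean normalized count of 164 and a log2 fold change of -0.27 ± 0.30 (SE; adjusted p 0.656; authors' deposited table). Its span overlaps that of the long non-coding RNA gene Gm27177 by 31779 bp. Loxl4, at chr19:42592279-42612806, had a mean normalized count of 991 and a log2 fold change of -0.18 ± 0.20 (SE; adjusted p 0.649; authors' deposited table). Its SE was small for its count, since 8.31% of 2853 genes of like count had a smaller one. The intervals reached from 0.550-fold to 1.26-fold for Loxl2 and from 0.675-fold to 1.16-fold for Loxl4, so a fall or a small rise is within either.

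The lysyl oxidase genes therefore split into those that rose and those not called, and the size of this gap was read from differences between fold changes. Loxl1 stood above Loxl4 by 1.29 on the log2 scale, with a 95% interval of 0.76 to 1.81, and above Loxl2 by 1.38 (0.69 to 2.07). For Lox the differences were 0.99 over Loxl4 (0.41 to 1.57) and 1.08 over Loxl2 (0.34 to 1.82). Loxl3 lay 1.15 above Loxl4 (0.41 to 1.88) and 1.23 above Loxl2 (0.37 to 2.10). The 3 differences among Lox, Loxl1 and Loxl3 had intervals that include 0, and so did that between Loxl4 and Loxl2. These intervals combine the standard errors of both genes as if independent, although all genes come from the same 4 libraries, and no p was attached to them. The genes were grouped by calls on these same values, so a gap between the groups is partly built in.

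The lysyl hydroxylases showed no call and no common direction. Plod1 acts chiefly on lysines in the helical part of collagen and lies at chr4:147909753-147936776. The authors' deposited table lists it with a mean normalized count of 1865 and a log2 fold change of 0.35 ± 0.21 (SE; adjusted p 0.285). Plod2, which hydroxylates the telopeptide lysines that give hydroxylysine-derived crosslinks, lies at chr9:92539636-92608428. In the authors' deposited table its mean normalized count was 2009 and its log2 fold change -0.55 ± 0.22 (SE; unadjusted p 0.0146, adjusted p 0.0978). In the assumed direction that is 0.684-fold, with an interval of 0.505-fold to 0.928-fold, and Plod2 was not called.

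Plod3, which also adds sugars to hydroxylysine, lies at chr5:136987019-136996646. In the authors' deposited table it had a mean normalized count of 7277 and a log2 fold change of -0.43 ± 0.21 (SE; unadjusted p 0.0410, adjusted p 0.186). Its span overlaps that of Znhit1 by 941 bp, a gene listed at 0.19 on the log2 scale (adjusted p 0.689; authors' deposited table). The difference between Plod1 and Plod2 was 0.90 on the log2 scale (95% interval 0.31 to 1.498) and that between Plod1 and Plod3 was 0.78 (0.21 to 1.36). Between Plod3 and Plod2 it was 0.12 (-0.49 to 0.72).

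The prolyl 4-hydroxylase alpha subunits, which carry the catalytic site of that enzyme, had small fold changes. P4ha1, the main form in most cells, lies at chr10:59323197-59373304 and had a mean normalized count of 9922 and a log2 fold change of 0.07 ± 0.18 (SE; adjusted p 0.863; authors' deposited table). P4ha2, at chr11:54100924-54131668, had a mean normalized count of 1690 and a log2 fold change of -0.21 ± 0.24 (SE; adjusted p 0.656; authors' deposited table). The interval for P4ha1 was 0.824-fold to 1.34-fold. For P4ha2 it was 0.629-fold to 1.19-fold.

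Over the 10 members the median log2 fold change was -0.05, beside -0.0027 over all tested genes, and 5 values were positive and 5 negative. By family the median was 0.81 for the lysyl oxidases, -0.43 for the lysyl hydroxylases and -0.07 for the P4ha genes. Of 45 pairs of members, 22 had a difference whose 95% interval lay off 0. Among the 21 pairs of a called and an uncalled member this held for 19. Calls rest on the same fold changes and standard errors, so the grouping itself partly sets that count. The exceptions were Lox and Loxl3, each against Plod1.

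**Figure D2:**
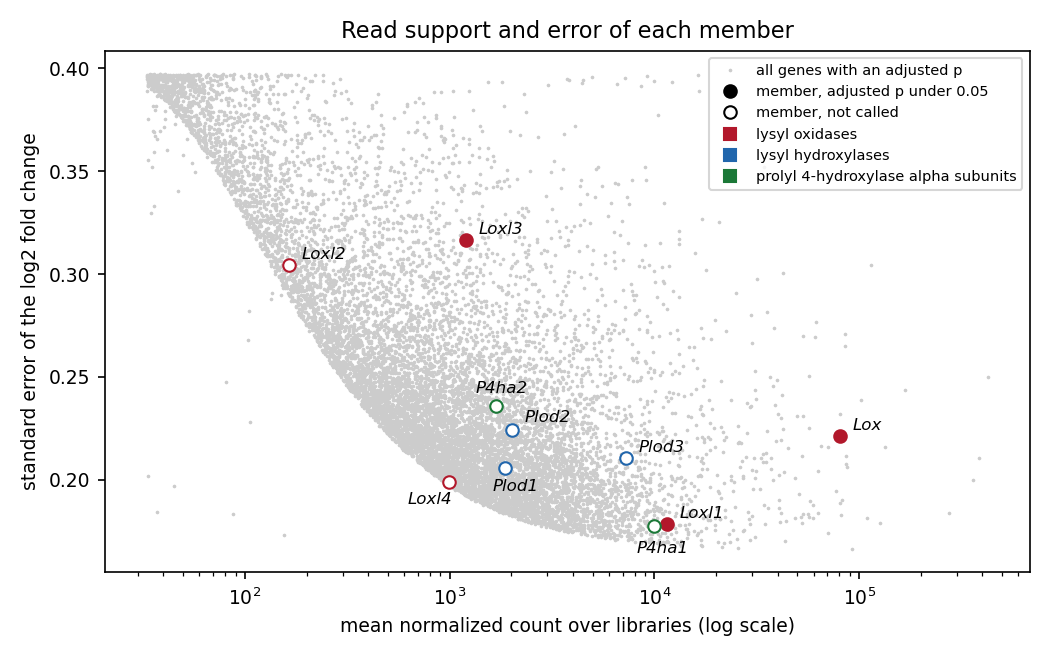
Mean normalized count over libraries (x axis, log scale) against the standard error of the log2 fold change (y axis) for all genes with an adjusted p (grey) and the 10 members. Loxl2 has the fewest counts, 164, and Loxl3 lies above most genes of like count with a standard error of 0.32.

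Genes that work with these enzymes were read from 13 lists of 95 genes, of which 79 had an adjusted p. Of those 79, 18 were called higher and 4 lower, or 22.8% and 5.06%, beside 6.15% and 4.74% over all tested genes. Their median log2 fold change was 0.19. Of these 22 called genes, 13 belonged to the lists for fibrillar collagens, propeptide removal and scaffold proteins. Genes named below are all called genes of a list and the gene of highest mean normalized count, with Tgm2 added.

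Among partners of the hydroxylases in the endoplasmic reticulum, 3 small lists held no call, at a share of 10.9% called either way over all genes. Of 3 further 4-hydroxylase genes none was called, and P4hb, the beta subunit that holds P4ha proteins soluble, was listed at a log2 fold change of 0.39 (adjusted p 0.265; authors' deposited table). None of 5 tested genes of the prolyl 3-hydroxylase complexes was called, with a median of 0.35. Among them, the isomerase gene Ppib stood at 0.35 (adjusted p 0.240) in the authors' deposited table. Colgalt1, a galactosyltransferase of hydroxylysine and the 1 tested gene of its list, had -0.40 (adjusted p 0.294) in the authors' deposited table.

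Of 8 collagen chaperones and isomerases, 2 rose and 1 fell, or 37.5% called beside 10.9% over all genes. The prolyl isomerase gene Fkbp14 rose by 1.28 (adjusted p 5.03e-05) and Sparc, a secreted collagen-binding protein, by 0.97 (adjusted p 0.00890) as log2 values in the authors' deposited table. The general chaperone gene Hspa5 fell by 0.95 (adjusted p 0.00803) on that scale in the authors' deposited table. Of 9 procollagen export genes 1 rose, or 11.1%, beside 6.15% over all genes, the coat gene Sec23a at 0.76 (adjusted p 0.0222), and Sec31a had 0.29 (adjusted p 0.372) in the authors' deposited table.

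Genes that free collagen from its propeptides rose in 3 of 5 tested cases, beside 6.15% over all genes, with a median of 1.15. Adamts2, which removes amino-terminal propeptides, rose by 1.93 (adjusted p 2.70e-11) as a log2 value in the authors' deposited table. Bmp1, which removes carboxy-terminal propeptides and also activates the Lox proenzyme, rose by 1.24 (adjusted p 1.02e-05) on that scale in the authors' deposited table. The enhancer of that step, Pcolce, rose by 1.15 (adjusted p 0.000326) as a log2 value of the authors' deposited table. Of 8 proteins that hold lysyl oxidases or form elastic fibres, 4 rose and 0 fell, beside 6.15% called higher over all genes. These were Fmod at 2.32, Postn at 1.67, Fbn1 at 1.62 and Fbln5 at 1.29, with adjusted p of at most 0.00068, while Fn1 had 0.13 (adjusted p 0.807) in the authors' deposited table. Fmod had a mean normalized count of 77.4 there. The elastin gene Eln, also of this list, had a mean normalized count of 11.4 and no adjusted p in the authors' deposited table, so it is not among those tested.

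Of 8 fibrillar collagen genes, the substrates of all these enzymes, 6 rose and 0 fell, beside 6.15% called higher over all genes, with a median of 1.06. In the authors' deposited table they ran on the log2 scale from 0.89 for Col1a2 to 3.25 for Col3a1, with Col1a1 at 0.98, Col11a1 at 1.14, Col5a1 at 1.20 and Col5a3 at 1.73. Col11a1 had a mean normalized count of 51.5 in the authors' deposited table. Of the 3 tested genes in a mixed list of other crosslinkers and peroxidases, 2 rose, at the same 6.15% over all genes. They were the peroxidasin gene Pxdn at 0.78 (adjusted p 0.00247) and the peroxiredoxin gene Prdx4 at 0.63 (adjusted p 0.0133) in the authors' deposited table. The transglutaminase gene Tgm2 had -0.44 there (adjusted p 0.236) and was not called.

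The short lists for cofactor supply and oxygen sensing held no call, which does not set them apart from the 10.9% called over all genes. Of 7 copper genes, 7 ascorbate and iron genes and 6 oxygen-sensing genes none was called, with medians of 0.08, -0.11 and 0.0072. The importer gene Slc31a1 had 0.08 (adjusted p 0.847), the dehydroascorbate reductase gene Gsto1 0.19 (adjusted p 0.555) and Hif1a 0.27 (adjusted p 0.452) in the authors' deposited table. Hypoxia, known to induce P4ha1, Plod2 and Lox, has other targets, of which 3 of 9 tested fell and 0 rose, beside 4.74% called lower over all genes. The glucose transporter gene Slc2a1 fell by 0.96 (adjusted p 2.68e-05), Ldha by 0.71 (adjusted p 0.00718) and Bnip3 by 0.74 (adjusted p 0.0390) as log2 values in the authors' deposited table. The call of Bnip3 was lost when p-values were adjusted over all genes that have one (adjusted p 0.0588).

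**Figure D3:**
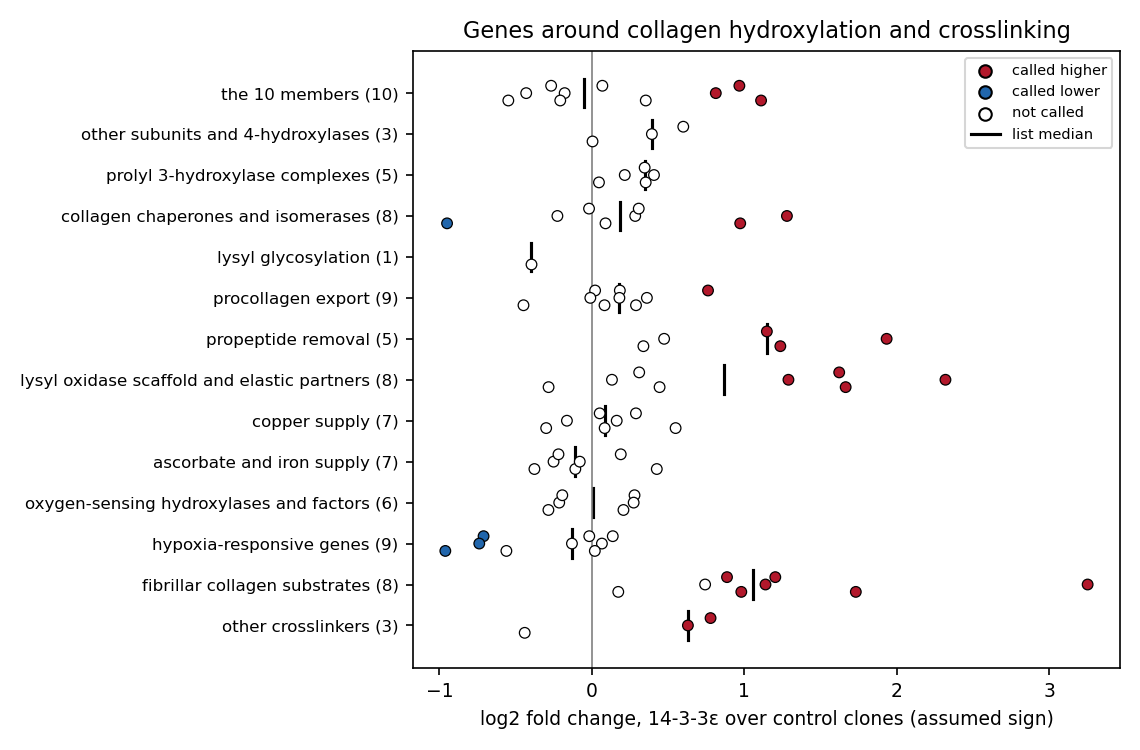
Log2 fold changes (x axis, 14-3-3ε over control clones, assumed sign) of the 10 members and of 13 lists, with the number of genes that have an adjusted p in brackets. Red and blue points are called higher and lower and bars are list medians; red points gather in the propeptide, scaffold and fibrillar collagen rows, and the 3 of the members are all lysyl oxidases.

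In the comparison of methylation, Plod2 held more called cytosines than any other member, 18 of the 32 within all gene spans. The RRBS table lists, for each cytosine, a difference in percent methylation and a q-value, and 2361680 cytosines were used. A cytosine was called at q under 0.05, which held for 2.83% as lower, 1.92% as higher and 4.74% as either over the whole table. Inside the 10 gene spans, 918 cytosines were listed, of which 13 were lower and 19 higher, or 3.49% either way, a share near that of the whole table. With both strands of a CpG joined, 25 of 480 CpGs were called, or 5.21%. A joined CpG counted when either strand was called and neither the other way. No such share was computed over the whole table, so 5.21% cannot be set beside 4.74%. Without Plod2 the count of single cytosines was 9 lower and 5 higher of 801, or 1.75%. The table gives no coverage and no level per group, and if reads of a group were pooled its q-values do not hold the spread between clones.

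Plod2 had 117 listed cytosines within its span, 4 lower and 14 higher, or 15.4% called. The 14 higher ones lay together at chr9:92541901-92542598, from 2265 to 2962 bp inside the lower-numbered end of the gene. This stretch of 698 bp was delimited after its values were seen and is described without a test. It held 62 listed cytosines with 0 called lower, and 51 differences were positive and 9 negative, with a minimum of -20.6 points. Of 31 CpGs listed on both strands, 21 had a positive difference on both. Because the stretch ends at the last higher call, a cytosine called lower at position 92542701, at -10.97 points, falls just outside it. The mean of the 62 differences was 6.89 percentage points, and the ones called higher ranged from 6.12 to 25.97 points in the authors' deposited table. The smallest q among those called was 1.44e-11 in the authors' deposited table.

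Outside this stretch, the other 55 cytosines of Plod2 included 4 called lower and 0 higher, with a mean of -1.70 points averaged from the authors' deposited table. A further cytosine below the gene, at position 92538476, was higher by 31.3 points in the authors' deposited table. In fixed windows of 1 kb, the window at chr9:92541001-92542000 was called higher, with 6 of 12 cytosines higher, 0 lower and a mean of 12.7 points averaged from the authors' deposited table. Such a call needs at least 5 listed and 3 called cytosines, none called the other way, and calls at 10% or more. The rule was taken over from an earlier analysis of these data, where its choice followed results. Among 125698 windows with enough cytosines, 1.07% were called higher and 3.45% either way, and 99.6% had a lower mean than this one. It was the only called window of 39 in the members. The next window of Plod2, chr9:92542001-92543000, held 8 higher and 1 lower of 74 cytosines and was not called. A high mean also occurred without calls, in the Loxl4 window at chr19:42602001-42603000. There 6 cytosines with 0 called had a mean of 11.4 points, and 99.4% of windows had a lower one.

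All 62 cytosines of the stretch also lie inside the span of the long non-coding RNA gene B430319G15Rik, which overlaps Plod2 by 3234 bp. That gene had a mean normalized count of 20.5, a log2 fold change of 0.03 and no adjusted p in the authors' deposited table. The gene table used has no strand or exons, and the gene ends of Plod2 had 0 listed cytosines within 1000 bp, so the stretch was not placed relative to a start of transcription. Beside it, Plod2 transcripts stood at a log2 fold change of -0.55 without a call, as given above, and whether the values are linked was not tested.

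**Figure D4:**
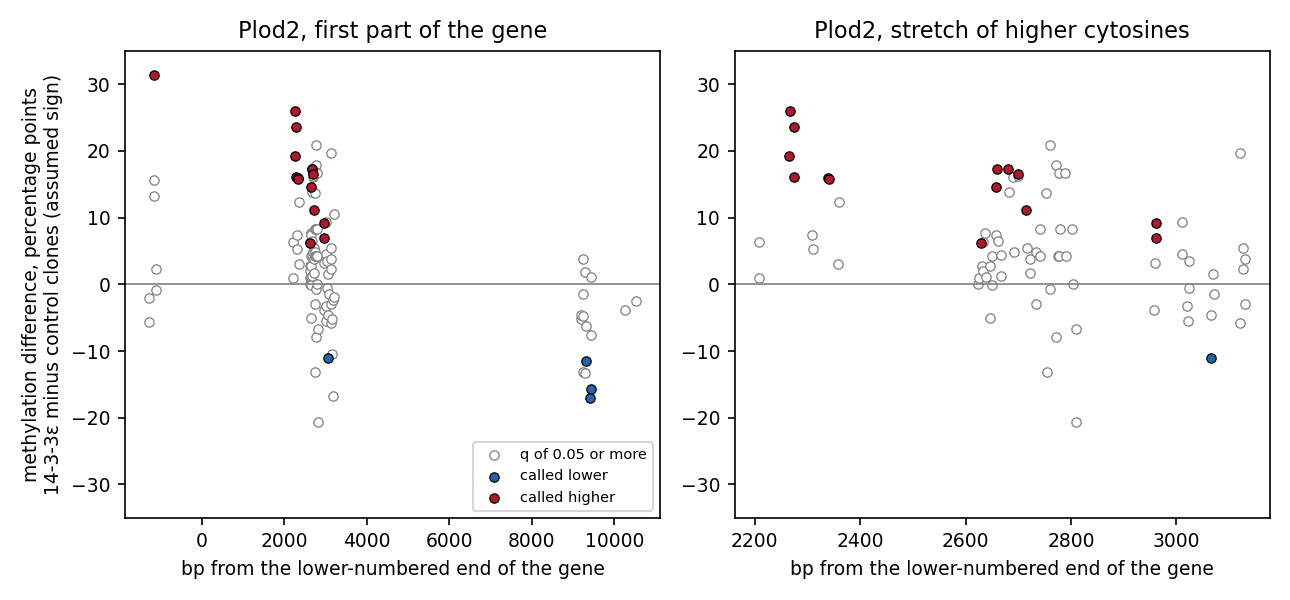
Methylation difference of each listed cytosine (y axis, percentage points, 14-3-3ε minus control clones, assumed sign) against distance in bp from the lower-numbered end of Plod2 (x axis), for the first part of the gene on the left and the stretch of higher cytosines on the right. The 14 red points are called higher between 2265 and 2962 bp, with differences of 6.12 to 25.97 points, and blue points are called lower.

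At the lysyl oxidase genes that rose, few cytosines were called, beside 4.74% over the whole table. That also held for some members without a call for transcripts, with 1 of 142 in Plod3, 1 of 82 in Plod1 and 0 of 100 in P4ha1. Larger shares were called in Loxl4, 3 of 27, in P4ha2, 6 of 83, and in Plod2, 18 of 117. Lox had 138 listed cytosines in its span, with 1 higher and a mean of 0.018 points averaged from the authors' deposited table. Loxl1 had 132 with 1 lower and 1 higher and a mean of -0.04 points, and Loxl3 had 93 with 0 called and a mean of -0.39 points averaged from the authors' deposited table. Within 1000 bp of a gene end, 96 were listed at the higher-numbered end of Lox, 85 at the higher-numbered and 2 at the lower-numbered end of Loxl1, and 32 at the lower-numbered end of Loxl3, with 0 called at each. The 16 called cytosines within 5000 bp of Loxl3 lay in its neighbours, 7 in Dok1 and 9 in Aup1. Transcripts of Dok1 and Aup1 stood at log2 fold changes of 0.28 (adjusted p 0.678) and -0.17 (adjusted p 0.677; authors' deposited table).

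Loxl4 held 27 listed cytosines in its span, of which 3 at chr19:42603973-42603980 were lower, with differences from -25.02 to -18.2 points in the authors' deposited table. Between them, position 42603974, the other strand of the CpG at 42603973, had -1.43 points and was not called. In the 250 bases upstream printed above, 18 cytosines were listed and 0 called, with a mean of 6.68 points and a range from -4.23 to 20.3 points in the authors' deposited table. There 12 differences were positive, 5 negative and 1 was 0. The 2 strands of the same CpGs differed, with plus-strand cytosines from -1.75 to 5.74 points and minus-strand ones from -4.23 to 20.3 points. Loxl2 had 4 listed cytosines in its span and 0 within 1000 bp of its gene ends, so methylation at its ends was not measured in this table.

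In the 250 bases upstream of the other members with a RefSeq start, the mean differences lay between 0.12 and 0.58 points. The 250 bases of P4ha1 printed above held 46 listed cytosines with 0 called and a mean of 0.58 points averaged from the authors' deposited table. Those nearest the start lie inside the annotated gene span. Further upstream, 2 cytosines at positions 59322928 and 59322937 were higher by 17.7 and 20.03 points in the authors' deposited table. Those of Plod1 held 21 with 1 lower, at -6.67 points and position 147936887, and a mean of 0.38 points in the authors' deposited table. Plod3 had 32 with 0 called and a mean of 0.12 points, with a range from -2.05 to 4.86 points, in the authors' deposited table. P4ha2 had 29 with 0 called and a mean of 0.52 points, with a wider range from -10.4 to 11.2 points, in the authors' deposited table.

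Within 1000 bp of its start, P4ha2 had 82 listed cytosines, 5 lower and 2 higher, spread between others not called. The called ones ranged from -19.3 to 22.7 points in the authors' deposited table, with both directions present, so the window was not called. Over the 5 windows at RefSeq starts, 6 of 378 cytosines were lower and 4 higher, or 2.65% either way, and 0 windows were called. Among 17215 such windows with enough cytosines over all genes of the promoter table, 3.11% were called.

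**Figure D5:**
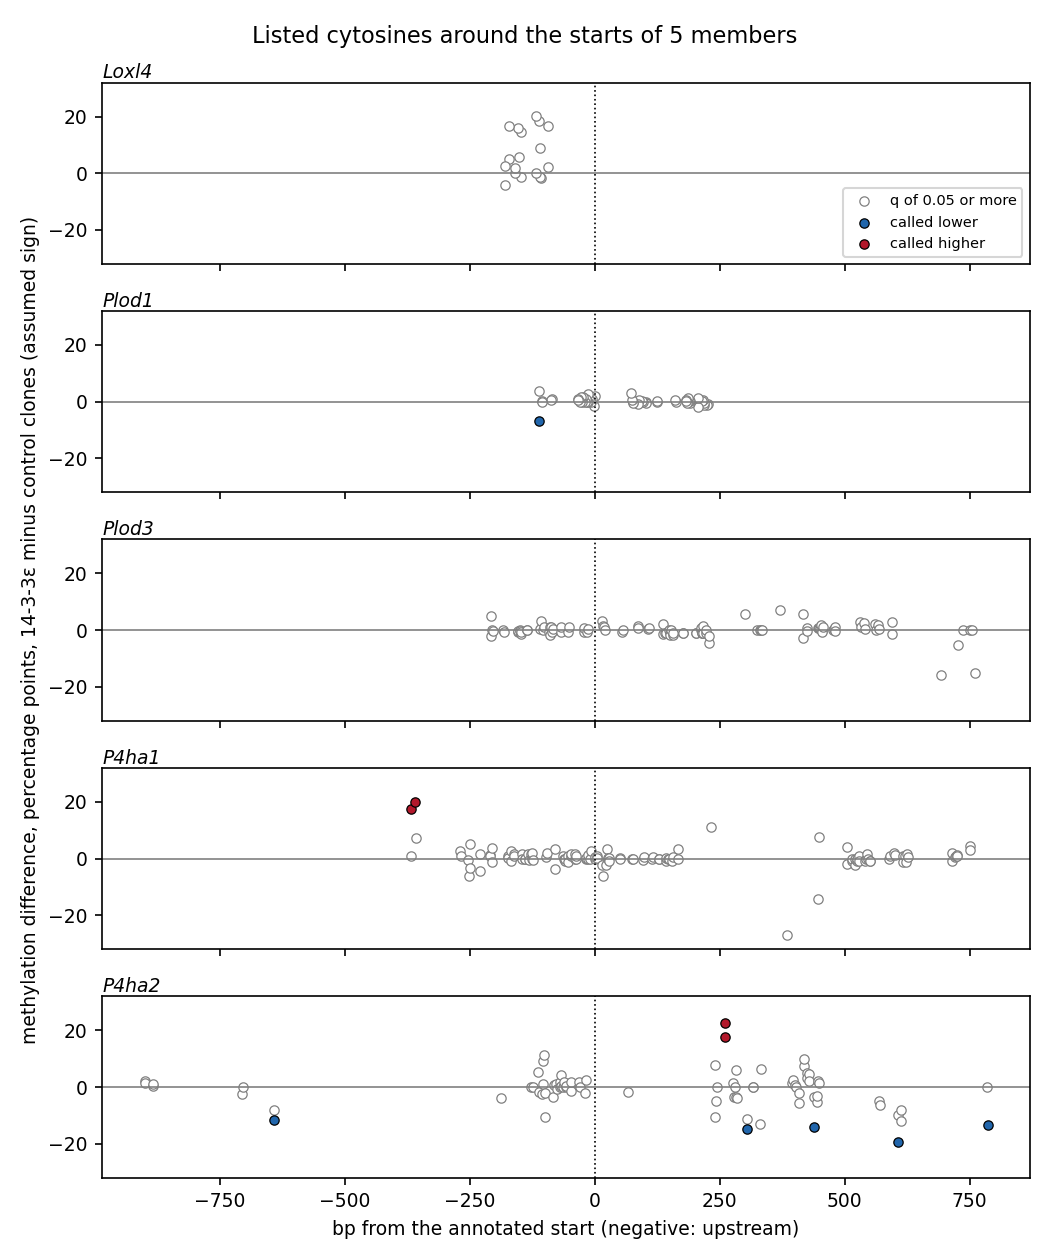
Methylation difference of each listed cytosine (y axis, percentage points, 14-3-3ε minus control clones, assumed sign) against distance from the annotated start (x axis, bp, negative upstream) for Loxl4, Plod1, Plod3, P4ha1 and P4ha2. Red and blue points are called higher and lower; 2 red points stand upstream of P4ha1, at 17.7 and 20.03 points, points reach 20.3 points without a call at Loxl4, and are called both ways around P4ha2.

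The core of the hypoxia response element, a CpG-holding word bound by HIF factors, was searched in the 250 upstream bases as ACGTG or GCGTG on either strand. It was found in all 5 members with a RefSeq start, at 12 places that did not overlap, and in 38.6% of 32817 such stretches in the promoter table. The 5 stretches have a GC content of 55.6% to 76.0%, beside a median of 52.4% over all, which bears on how often such a word occurs. P4ha1 holds it at positions -163, -126 and -16 from its RefSeq start, in the sequence printed above. The place at -16 lies inside the annotated gene span. All 12 places held listed cytosines, 29 in all with 0 called, and their differences ranged from -2.34 to 9.20 points in the authors' deposited table. A match of letters is a description and not a binding site.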

How the data were processed

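RNA-seq and RRBS tables of the authors' comparison, with no value per clone, were used as deposited. Trim Galore, Bismark, Bowtie2, TopHat2, HTSeq, methylKit, DESeq2 and mm10 are named, without version or role, per the submitters' processing notes. The mean normalized count is a signal the authors deposited as baseMean, read here as the mean of counts divided by size factors, which the file does not state. Fold changes and standard errors are log2 values deposited by the authors. The largest log2 fold change in size was 0.113 among the 2386 genes at a mean count of 1 or less, so estimates look moderated and weak genes understated. The deposited statistic is a score, fold change over standard error. P-values, adjusted p-values and q-values were deposited by the authors. The methylation difference is in percent points, per the file headers. For depth per sample, coverage and the strand setting of counting: not given in the sources used here.

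Calls for genes took the deposited adjusted p under 0.05 over 11482 of 24062 genes, cytosines at q under 0.05 after removing 253 duplicate lines. The planned test windows were 1000 bp either side of a start or gene end. Intervals of 95% are the fold change plus or minus the normal quantile times the standard error. Scripts used Python 3.11.15, pandas 2.3.3 and numpy 2.4.6 and were tested on simulated data. P3h1, P3h2, P3h3, P3h4 and Colgalt1 were matched by older symbols. Named genes are all members, all called genes of a list, and its gene of highest mean count. Neighbours and Tgm2 were named after their values were seen. The members and lists were chosen with earlier results of these data known. Alternatives were other thresholds, adjustment over all genes with a p-value, minimum folds, CpG strands joined and other windows. Whether the 2 clones of a group vary for technical reasons is unknown.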

Additional observations from a re-analysis of the deposited data

How the results depend on the processing

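At an adjusted p under 0.01, 2 members were called, without Loxl3, beside 5.79% of all genes. At 0.1 there were 4, with Plod2 lower, beside 15.1%. Adjustment over all genes with a p-value left 3, beside 5.93%, and a minimum of 1.5-fold left 3, beside 10.2%. Each of these counts is within 1.5-fold of the main count of 3. A minimum of 2-fold left 1 member, Loxl1, and 12 of the 22 called list genes, all higher, beside 453 of all genes, or 3.95%. Of 32 checks of single genes under adjustment over all genes with a p-value, 31 kept their side of the threshold, the exception being Bnip3. Called cytosines in the 593 of start and end windows numbered 10, then 4 at q under 0.01, 0 at a difference of at least 25 points and 18 of 777 within 2000 bp. Inside genes they numbered 32 of 918, then 19 at q under 0.01, 2 at 25 points and 59 of 1516 with 5000 bp added on both sides. Without Plod2, a setting chosen after seeing the data, there were 14 of 801. Shares over the whole table were not computed at q under 0.01 or at 25 points. The window called in Plod2 was called under each of its alternatives, q under 0.01 or at least 5 called cytosines. Neither changed the other parts of the rule or the placing of windows. No clone could be left out. No paired analysis was possible because the tables hold no value per clone and the compared groups share no clone number. Coverage is not listed, so the depth behind single cytosines is unknown, and 2 clones per group limit every test.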
